A study of Mus musculus with 12 samples.

Results

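The aryl hydrocarbon receptor (AHR) and genes it is known to control were examined in mouse liver as a set of 6 genes: Ahr, Ahrr, Cyp1a1, Cyp1a2, Tiparp, and Nqo1. They were selected by symbol from the 22456 genes of the expression table, and they were chosen on their expression in the same 4 groups described here, so their levels between groups are given as a description with no test. AHR is a transcription factor that waits in the cytoplasm with chaperone proteins, enters the nucleus when it binds a planar aromatic ligand, pairs with ARNT, and binds xenobiotic response elements in DNA. Ligands include environmental pollutants as well as products of tryptophan breakdown, and the liver is the main site at which its target enzymes clear them. Cyp1a1 and Cyp1a2 encode cytochrome P450 oxidases of this response, Ahrr and Tiparp encode repressors that feed back on AHR, and Nqo1 encodes a quinone reductase that is also a target of the antioxidant factor NRF2.

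Liver RNA came from 12 male mice of the BALB/cByJ strain aged 2–8 months, 3 in each of 4 groups, with wild-type mice (Lpin1+/+) set against mice homozygous for the spontaneous fld mutation of Lpin1 (Lpin1-/-), which lack the phosphatidic acid phosphatase lipin 1 in every tissue from birth. Fasted mice went without food for 16 hours, and refed mice had chow for 5 hours after such a fast, so effects of food and of the hour of sampling cannot be told apart. The comparisons ask how the AHR genes differ between fed states in each genotype, and between genotypes in each fed state. Expression is given as RPKM (read numbers scaled to transcript length in kilobases and to the mapped reads of each library), and differences between groups as log2(RPKM + 1) ± SE from 1 limma fit of all 12 libraries. The fit covered the 11507 genes whose mean reached 0.5 RPKM, which took in 5 of the 6 members, and Ahrr lay under this minimum. In bulk liver, fewer cells of a type and less RNA per cell cannot be told apart.

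Lpin1 itself was at 0.726 to 22.0 RPKM in the 6 Lpin1+/+ libraries and at 0.00573 to 0.0597 in the 6 Lpin1-/- libraries, with no overlap in either fed state. Hepatocyte markers were abundant in every library, with albumin (Alb) at 11777 to 45603 RPKM. The library refed Lpin1+/+ replicate 2 was least like its group (mean Spearman correlation of 0.915 over the genes tested, against 0.932 to 0.981 in the others), with the lowest sum of 9 hepatocyte markers (45477 RPKM) and a high sum of 9 Kupffer cell markers (904 RPKM). In fasted Lpin1-/- replicate 1, the sum of 5 cholangiocyte markers was 451 RPKM, against 19.2 to 103 in the other libraries. This library also had the highest Kupffer cell sum of the 12 (992 RPKM). Its sum of 11 markers of pericentral hepatocytes, those around the central vein, was the lowest (2477 RPKM). Values without these libraries are given for the members where they matter, and the ranges of marker sums below include them. Low RPKM values of different libraries stood in ratios of whole numbers, which gave depths from 0.866 to 1.16 relative to fasted Lpin1+/+ replicate 1, and, for each member, the smallest whole numbers of reads in proportion to its RPKM (within 0.02 of a whole number in all 12 libraries).

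The promoter windows of the members show where the core of the xenobiotic response element lies, and they are printed here for the members that hold it. The window runs from 250 bases before to 50 bases after the transcription start (RefSeq, GRCm38.p6), and 5 of the 6 members had an entry. The core searched was GCGTG on either strand (CACGC on the printed strand when reversed), it is in capitals below, and no other motif was searched. It occurred in 32.4% of all 32851 windows of this length, and 3 or more times in 3.91% of them.
Cyp1a1, chr9:57697363-57697662, + strand: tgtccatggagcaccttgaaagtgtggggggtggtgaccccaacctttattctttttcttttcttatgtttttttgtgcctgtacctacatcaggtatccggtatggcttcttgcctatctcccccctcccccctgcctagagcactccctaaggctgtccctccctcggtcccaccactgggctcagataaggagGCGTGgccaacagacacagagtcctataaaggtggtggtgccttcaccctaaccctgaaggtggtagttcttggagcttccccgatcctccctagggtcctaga
Tiparp, chr3:65528197-65528496, + strand: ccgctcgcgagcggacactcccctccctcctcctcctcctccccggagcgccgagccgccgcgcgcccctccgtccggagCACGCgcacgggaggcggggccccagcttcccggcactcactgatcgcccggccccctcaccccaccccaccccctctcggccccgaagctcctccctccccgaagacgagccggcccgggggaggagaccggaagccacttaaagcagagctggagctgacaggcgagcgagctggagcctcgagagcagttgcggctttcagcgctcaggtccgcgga
Ahrr, chr13:74292282-74292581, - strand: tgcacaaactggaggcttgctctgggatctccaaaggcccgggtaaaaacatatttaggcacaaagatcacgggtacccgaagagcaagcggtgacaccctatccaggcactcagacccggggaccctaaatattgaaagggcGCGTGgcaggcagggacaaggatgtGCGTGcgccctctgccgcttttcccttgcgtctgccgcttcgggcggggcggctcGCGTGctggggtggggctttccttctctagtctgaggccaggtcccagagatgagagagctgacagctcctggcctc
The Cyp1a1 window held the core 1 time, 54 bases before the start. The Tiparp window also held it 1 time, reversed, 170 bases before the start. The Ahrr window held it 3 times, 107, 82, and 27 bases before the start. The windows of Cyp1a2 (chr9:57683606-57683905, - strand) and Nqo1 (chr8:107403156-107403455, - strand) held no match, which says only that these letters are not in this window.

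Ahr, the receptor gene (ENSMUSG00000019256.17, chr12:35497974-35535038, - strand, GENCODE M21 on GRCm38), was lowest in fasted Lpin1-/- liver. It was at 7.08, 1.65, and 2.58 RPKM in fasted Lpin1+/+ replicates 1 to 3 and at 0.930, 0.900, and 2.29 in fasted Lpin1-/-. Refed Lpin1+/+ livers were close together at 3.76, 3.84, and 3.75 RPKM, and refed Lpin1-/- livers were at 4.03, 3.15, and 1.97. The fasted genotypes overlapped, since fasted Lpin1+/+ replicate 2 lay below fasted Lpin1-/- replicate 3, and the refed genotypes overlapped as well. The difference of Lpin1-/- from Lpin1+/+ was -0.89 ± 0.37 in fasted liver and -0.27 ± 0.37 in refed liver on the log2 scale. Replicate 1 of fasted Lpin1+/+, which also had the highest Lpin1 level (22.0 RPKM), set much of the fasted difference: without that library it was -0.43, and the difference of refed from fasted Lpin1+/+ was 0.63 in place of 0.17. In Lpin1-/- liver, Ahr differed by 0.79 ± 0.37 between refed and fasted.

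Ahrr, the repressor that competes with AHR for ARNT (ENSMUSG00000021575.16, chr13:74211118-74292331, - strand), was barely detected. Its values, 0.00438, 0.00465, and 0.0136 RPKM in fasted Lpin1+/+ liver and 0.0371, 0.0220, and 0.0133 in fasted Lpin1-/- liver, stood for as few as 1, 1, and 3 reads and 8, 5, and 3 reads. In refed liver it was at 0.0455, 0.0485, and 0.0202 RPKM in Lpin1+/+ (9, 12, and 5 reads) and at 0.00378, 0.0157, and 0.00423 in Lpin1-/- (1, 4, and 1 reads). All 3 refed Lpin1+/+ livers thus lay above all 3 fasted Lpin1+/+ livers and above all 3 refed Lpin1-/- livers, while the other group pairs overlapped. Summed over 3 libraries, the reads were 5 in fasted Lpin1+/+ (exact 95% Poisson interval 1.62 to 11.7), 16 in fasted Lpin1-/- (9.15 to 26.0), 26 in refed Lpin1+/+ (17.0 to 38.1), and 6 in refed Lpin1-/- (2.20 to 13.1). These intervals cover counting error only. Relative to the read numbers, they would be narrower if the true numbers are multiples of these.

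Cyp1a1 (ENSMUSG00000032315.6, chr9:57687928-57703824, + strand), the classical AHR target, was low in fasted liver and higher in refed liver of both genotypes. In fasted liver it was at 0.152, 0.218, and 0.286 RPKM in Lpin1+/+ and at 0.304, 0.241, and 0.467 in Lpin1-/-. In refed liver it was at 3.10, 4.07, and 2.06 RPKM in Lpin1+/+ and at 1.05, 2.87, and 1.69 in Lpin1-/-. Every refed library lay above every fasted library, whereas the genotypes overlapped in both states. The mean of refed Lpin1+/+ liver, 3.08 ± 1.01 RPKM (SD, n = 3), was 14.1 times that of fasted Lpin1+/+ liver, 0.219 ± 0.0667. In Lpin1-/- liver the means were 1.87 ± 0.919 refed and 0.338 ± 0.117 fasted, a ratio of 5.54. On the log2(RPKM + 1) scale, which understates the change of a low gene, the differences were 1.71 ± 0.24 in Lpin1+/+ and 1.06 ± 0.24 in Lpin1-/-, and with 0.1 added in place of 1 they were 3.29 and 2.10. The refeeding difference was smaller in Lpin1-/- by -0.66 ± 0.34, and without refed Lpin1+/+ replicate 2 this was -0.48. As few as 26 to 79 reads in the fasted libraries and 208 to 753 in the refed libraries stood behind these values.

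Cyp1a2 (ENSMUSG00000032310.4, chr9:57676937-57683703, - strand), which lies beside Cyp1a1 in the opposite orientation and encodes the constitutive caffeine-metabolizing oxidase of hepatocytes, was the most abundant member in every library. It was at 358, 297, and 306 RPKM in fasted Lpin1+/+ liver and at 317, 264, and 248 in fasted Lpin1-/- liver. It was at 169, 262, and 500 RPKM in refed Lpin1+/+ liver and at 196, 146, and 193 in refed Lpin1-/- liver. Within Lpin1-/-, all 3 refed livers lay below all 3 fasted livers, and the other group pairs overlapped. Refed Lpin1+/+ liver had the widest spread, 310 ± 170 RPKM (SD, n = 3), against 178 ± 28.4 in refed Lpin1-/-. Refed Lpin1-/- liver differed from fasted by -0.63 ± 0.32 and from refed Lpin1+/+ by -0.67 ± 0.32 on the log2 scale, and refed differed from fasted Lpin1+/+ by -0.18 ± 0.32. Without refed Lpin1+/+ replicate 3, the highest of its group, the last difference was -0.60 and the refed genotype difference -0.25. Without replicate 1, the lowest, they were 0.18 and -1.03. The paralogs Cyp1a1 and Cyp1a2 are similar in sequence, so reads of one could be counted for the other. In fasted liver Cyp1a2 was at 248 to 358 RPKM and Cyp1a1 at 0.152 to 0.467. The low Cyp1a1 values there are the more exposed to such miscounting, which was not tested.

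Tiparp (ENSMUSG00000034640.9, chr3:65528410-65555518, + strand), an ADP-ribosyltransferase that AHR induces and that in turn limits AHR, was highest in fasted Lpin1-/- liver. It was at 1.35, 0.712, and 1.19 RPKM in fasted Lpin1+/+ liver and at 6.76, 5.32, and 22.7 in fasted Lpin1-/- liver. In refed liver it was at 1.21, 1.21, and 0.826 RPKM in Lpin1+/+ and at 2.48, 1.77, and 1.44 in Lpin1-/-. The genotypes did not overlap in either state, and within Lpin1-/- every fasted liver lay above every refed liver, while fasted and refed Lpin1+/+ livers overlapped. Fasted Lpin1-/- liver had 11.6 ± 9.63 RPKM (SD, n = 3), 10.7 times the 1.09 ± 0.334 of fasted Lpin1+/+ liver, and refed Lpin1-/- liver had 1.76 times the mean of refed Lpin1+/+ liver. The log2 differences between genotypes were 2.35 ± 0.40 in fasted and 0.47 ± 0.40 in refed liver, and refed differed from fasted by -1.87 ± 0.40 in Lpin1-/- and by 0.00 ± 0.40 in Lpin1+/+. Replicate 3 of fasted Lpin1-/- stood well above the other livers, and without it the fasted genotype difference was 1.76 and the refeeding difference in Lpin1-/- was -1.29.

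Nqo1 (ENSMUSG00000003849.8, chr8:107388225-107403206, - strand) overlapped between groups in all 4 comparisons with every library included. It was at 7.22, 6.70, and 5.06 RPKM in fasted Lpin1+/+ liver and at 6.09, 2.36, and 2.44 in fasted Lpin1-/- liver. It was at 4.35, 12.6, and 1.79 RPKM in refed Lpin1+/+ liver and at 3.27, 6.01, and 5.50 in refed Lpin1-/- liver, where a single group spanned 1.79 to 12.6. Without fasted Lpin1-/- replicate 1 (6.09 RPKM), the library with high cholangiocyte and Kupffer cell markers, the other fasted Lpin1-/- livers lay below all fasted Lpin1+/+ and all refed Lpin1-/- livers. Its log2 differences lay between -0.74 and 0.42 with every library included, each with an SE of 0.49. Without fasted Lpin1-/- replicate 1, the fasted genotype difference went from -0.74 to -1.09 and the refeeding difference in Lpin1-/- liver from 0.42 to 0.77. The highest value, 12.6 RPKM, was in refed Lpin1+/+ replicate 2, the library with low hepatocyte and high Kupffer cell markers, and without it the refed genotype difference went from -0.02 to 0.58 and the refeeding difference in Lpin1+/+ liver from -0.30 to -0.91. Without refed Lpin1+/+ replicate 3, the lowest of its group, these were -0.56 and 0.23.

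**Figure D1:**
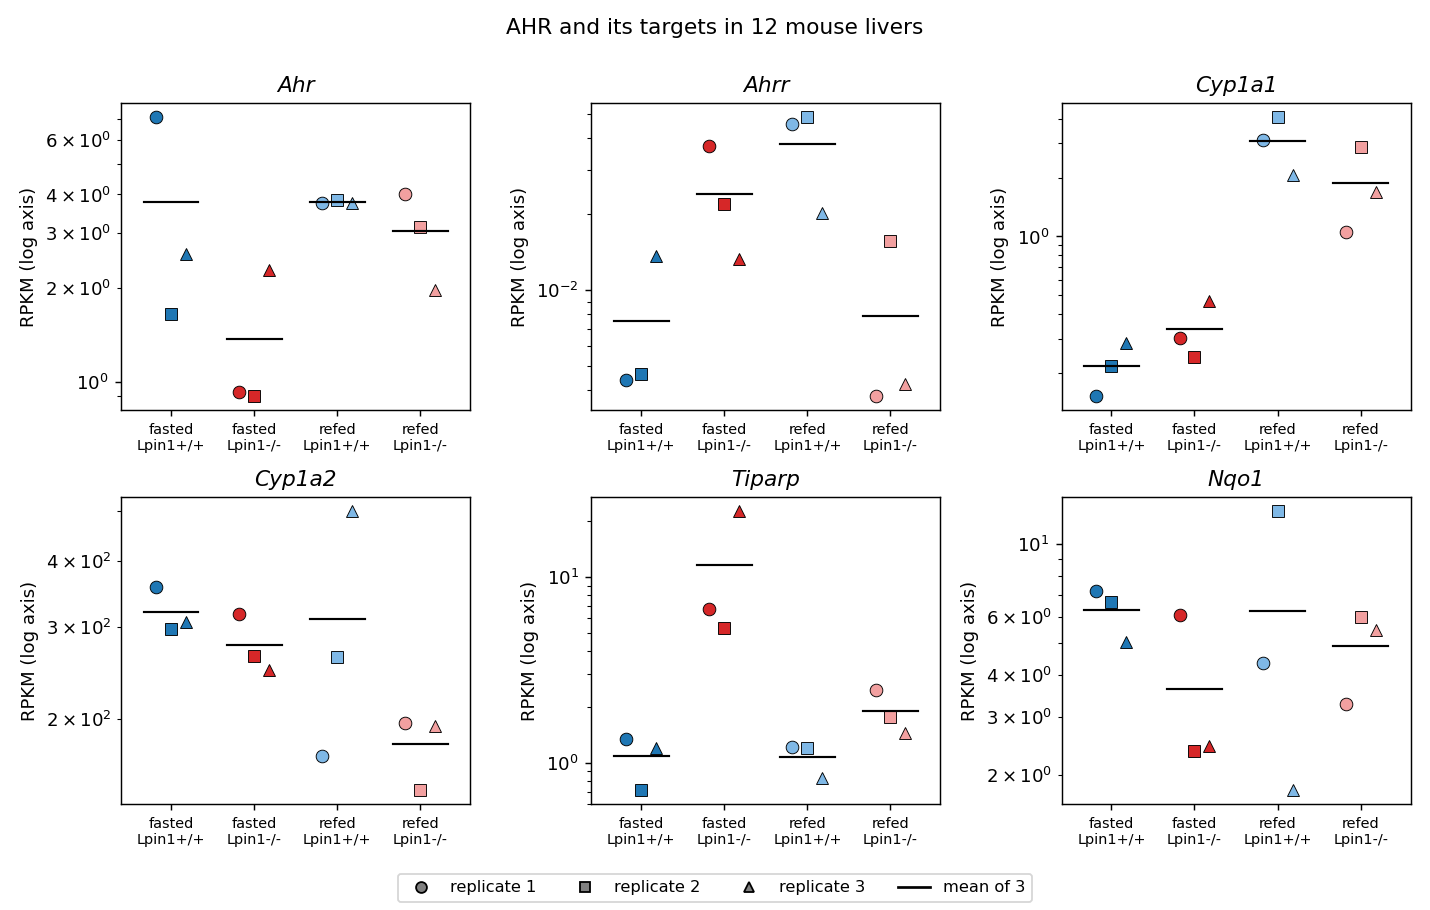
RPKM of the 6 members (log axes) in each library, by group, with the mean of 3 as a bar and the replicate number as the symbol. All 6 refed libraries lie above all 6 fasted libraries for Cyp1a1, and the 3 fasted Lpin1-/- libraries (5.32 to 22.7 RPKM) above the rest for Tiparp.

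The members whose groups stood apart differed from comparison to comparison. In refed against fasted Lpin1+/+ liver, Cyp1a1 and Ahrr did not overlap between groups, and such non-overlap was found for 18.1% of the genes tested. In refed against fasted Lpin1-/- liver it held for Cyp1a1, Cyp1a2, and Tiparp (46.8% of genes tested), between genotypes in fasted liver for Tiparp alone (32.9%), and between genotypes in refed liver for Tiparp and Ahrr (33.9%). Ahrr lay under the minimum for the fit, so these shares are of genes more highly expressed than Ahrr and are no background for it. At an adjusted p under 0.05, the fit passed 1 of the 5 members tested between refed and fasted Lpin1+/+ liver (Cyp1a1; 1.72% of all genes), 2 of 5 in Lpin1-/- liver (Cyp1a1 and Tiparp; 20.7%), 1 of 5 between genotypes in fasted liver (Tiparp; 18.8%), 0 of 5 in refed liver (6.67%), and 0 of 5 for the difference between genotypes in the refeeding response (1.28%). These counts come from the contrasts on which the members were chosen, and nothing is read from them.

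**Figure D2:**
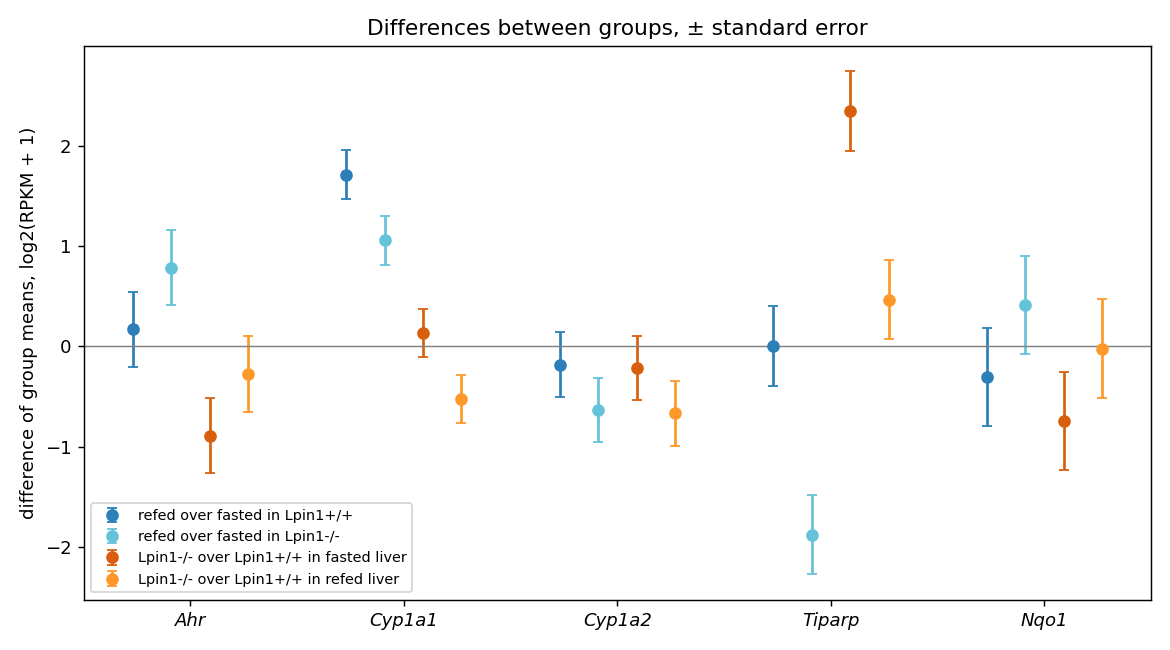
Differences between group means of log2(RPKM + 1) (points) with standard errors (bars) for the 5 members in the fit, in the 4 comparisons. Cyp1a1 is above 0 in both refeeding comparisons (1.71 and 1.06), and Tiparp is far from 0 in the fasted genotype comparison (2.35) and the Lpin1-/- refeeding comparison (-1.87).

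Other genes of the AHR pathway, 40 in 3 lists, had no part in the choice of the members and were tested. The lists themselves were drawn up with earlier results of these data known, so these tests are not independent of the data. The lists hold further genes of the AHR battery (15), the receptor's partners (14), and the kynurenine pathway (11), which turns tryptophan into AHR ligands. Of the 40, 35 were tested, and Cyp1b1, Aldh3a1, Arnt2, Ido1, and Il4i1 were too low. Adjusted p-values are from limma, by Benjamini and Hochberg over all 11507 genes. In no comparison did most of these genes pass: 1 of 35 rose on refeeding in Lpin1+/+ liver, 3 rose and 1 fell on refeeding in Lpin1-/- liver, 2 were higher and 3 lower in Lpin1-/- than in Lpin1+/+ fasted liver, and 3 were higher and 2 lower in Lpin1-/- refed liver. As shares of the 35 these were 2.86%, 11.4%, 14.3%, and 14.3%, beside the 1.72%, 20.7%, 18.8%, and 6.67% of all genes, and in limma 0 of the 35 passed for the difference in refeeding response, with 4 at an unadjusted p under 0.05. The median log2 difference of the 35 genes was 0.12, 0.28, -0.13, and -0.12 in these 4 comparisons, and that of all genes tested 0.19, 0.25, -0.14, and -0.07.

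In the AHR battery, Nfe2l2, which encodes NRF2, was lower in fasted Lpin1-/- liver than in any other group. It was at 24.2, 18.2, and 28.1 RPKM in fasted Lpin1+/+ and at 6.50, 6.21, and 4.38 in fasted Lpin1-/- liver (log2 difference -1.87 ± 0.35, adjusted p = 0.0043). It rose on refeeding in Lpin1-/- liver to 17.8, 34.3, and 22.8 RPKM (1.92 ± 0.35, adjusted p = 0.0040).

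Slc46a3, a lysosomal transporter, was at 14.1, 10.9, and 14.2 RPKM in fasted and at 28.9, 28.7, and 37.8 in refed Lpin1+/+ liver. It was at 7.04, 8.25, and 6.67 RPKM in fasted and at 5.30, 10.5, and 12.2 in refed Lpin1-/- liver, so that refed Lpin1-/- liver was lower than refed Lpin1+/+ by -1.72 ± 0.26 (adjusted p = 0.0044). Its rise on refeeding in Lpin1+/+ liver, 1.22 ± 0.26 (adjusted p = 0.039), was no longer called in 10 of 12 fits that left out 1 library (all but those without fasted or refed Lpin1-/- replicate 1), with an adjusted p of up to 0.16, while the log2 difference stayed between 1.09 and 1.28 over the 12 fits. The call was also lost in 5 of 6 other fits (adjusted p up to 0.17). The UDP-glucuronosyltransferases Ugt1a1, Ugt1a6a, and Ugt1a6b, which conjugate bilirubin and phenols, were abundant, with group means of 206 to 377 RPKM. None of them passed in any comparison (log2 differences of -0.36 to 0.60), and since genes of the Ugt1a locus share exons, their values are not independent.

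Among the receptor's partners, the chaperone gene Hsp90ab1 was abundant, at 277 ± 90.8 RPKM in fasted and 529 ± 204 in refed Lpin1+/+ liver and at 223 ± 28.1 and 246 ± 18.3 in Lpin1-/- liver (SD, n = 3). The refed genotypes did not overlap, but the difference of -1.02 ± 0.32 did not pass (adjusted p = 0.080). Ptges3, the p23 co-chaperone of the AHR complex, was at 27.0, 25.1, and 30.4 RPKM in fasted and at 47.3, 50.5, and 49.0 in refed Lpin1-/- liver, a rise of 0.81 ± 0.18 (adjusted p = 0.0095). It was no longer called after rescaling each library by its median ratio (0.57, adjusted p = 0.11). Smarca4, the BRG1 ATPase of the chromatin remodeler, rose from 4.72 ± 1.26 to 10.3 ± 1.19 RPKM (1.00 ± 0.30, adjusted p = 0.036). This call was lost in 7 of 12 fits that left out 1 library (adjusted p up to 0.13), those without fasted Lpin1+/+ replicate 3, fasted Lpin1-/- replicate 1 or 2, refed Lpin1+/+ replicate 1, or any of the refed Lpin1-/- replicates. It was also lost after rescaling by median ratio (0.79, adjusted p = 0.057), with no filter on low values (0.059), or with the replicate number as a block (0.051).

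Klf6, a zinc finger factor that can pair with AHR, was highest in fasted Lpin1-/- liver. It was at 3.16, 0.994, and 2.53 RPKM in fasted Lpin1+/+ and at 7.97, 7.90, and 19.6 in fasted Lpin1-/- liver, with the highest value in the same library as for Tiparp (1.94 ± 0.51, adjusted p = 0.022). On refeeding in Lpin1-/- liver it fell to 3.51, 3.04, and 1.38 RPKM (-1.75 ± 0.51, adjusted p = 0.032). The genotype call was lost without fasted Lpin1+/+ replicate 2 or 3 or fasted Lpin1-/- replicate 3 (adjusted p up to 0.075, log2 difference 1.54 without the last). The refeeding call was lost without fasted Lpin1-/- replicate 1 or 3 or any 1 of the refed Lpin1-/- replicates (adjusted p up to 0.11), and also with no filter on low values (0.065) or with the replicate number as a block (0.058).

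In the kynurenine pathway, the genes of the first step differed in opposite directions between refed genotypes. Tdo2, the tryptophan dioxygenase of hepatocytes, was at 867 ± 201 RPKM in refed Lpin1+/+ and at 2381 ± 144 in refed Lpin1-/- liver (1.48 ± 0.25, adjusted p = 0.0081). In fasted liver it was at 1237 ± 138 and 2095 ± 433 RPKM (0.74 ± 0.25, adjusted p = 0.063). Ido2, the other dioxygenase of this step found in liver, was at 41.2, 14.6, and 20.3 RPKM in fasted Lpin1+/+ and at 2.58, 4.66, and 4.92 in fasted Lpin1-/- liver (-2.29 ± 0.35, adjusted p = 0.0016). In refed liver it was at 34.0, 19.5, and 24.2 RPKM and at 6.24, 8.57, and 8.33 (-1.60 ± 0.35, adjusted p = 0.022), a call that was lost without refed Lpin1+/+ replicate 1 or 3 or any 1 of the refed Lpin1-/- replicates (adjusted p up to 0.088).

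Further along the pathway, Aadat, which makes kynurenic acid, was lower in fasted Lpin1-/- liver, at 34.1, 35.9, and 45.2 RPKM against 101, 81.5, and 93.9 (-1.25 ± 0.22, adjusted p = 0.0034). Kynu, the kynureninase, was higher in refed Lpin1-/- liver, at 114, 106, and 102 RPKM against 65.1, 49.2, and 37.1 (1.11 ± 0.28, adjusted p = 0.042). The Kynu call was lost in 7 of 12 fits that left out 1 library (adjusted p up to 0.13), those without fasted Lpin1-/- replicate 2 or 3, refed Lpin1+/+ replicate 2 or 3, or any of the refed Lpin1-/- replicates, and with no filter on low values (0.067). Haao, the dioxygenase near the end of the pathway, was at 257 to 385 RPKM in the group means and did not pass in any comparison.

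**Figure D3:**
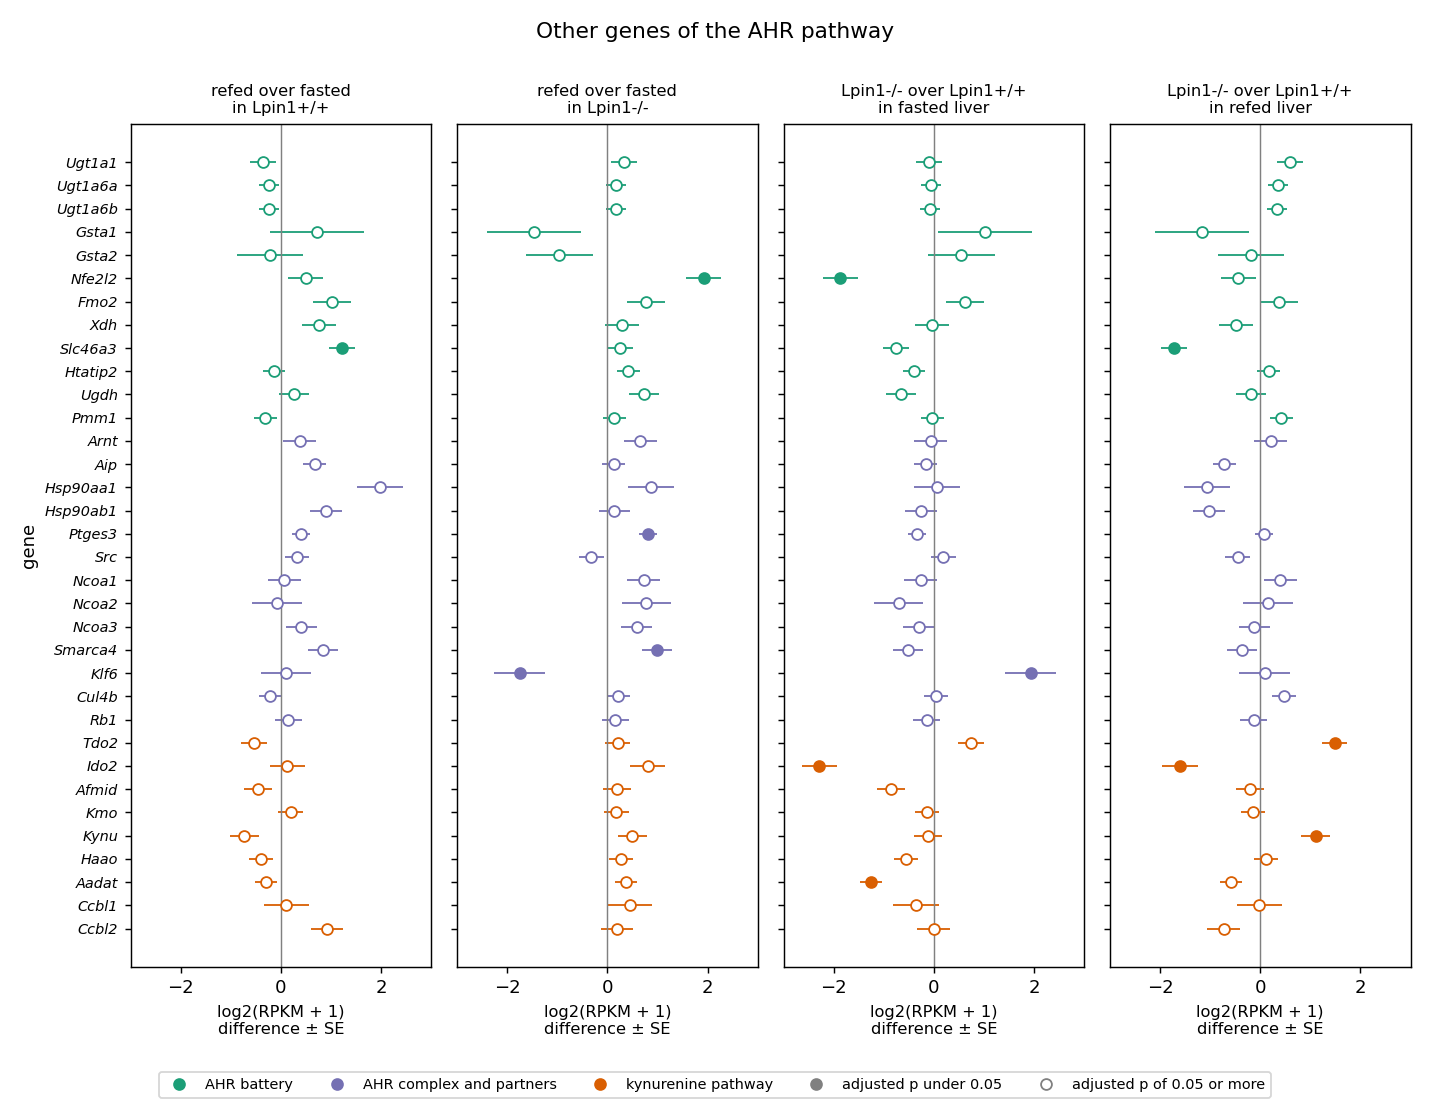
Differences of log2(RPKM + 1) ± SE for 34 of the 35 further AHR pathway genes tested, in 4 comparisons, colored by list, with filled points at an adjusted p under 0.05. Filled points are few (1, 4, 4, and 4 of 34), and Tdo2 and Ido2 lie on opposite sides of 0 in refed Lpin1-/- liver.

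Lists that could move with the members were counted in the same fit. The counts here and in the next paragraphs stand beside the shares of all genes that passed. These shares were 1.72% on refeeding in Lpin1+/+ and 20.7% in Lpin1-/- liver, and 18.8% between fasted and 6.67% between refed genotypes. Of all genes called, 1520 of 2168 were lower in fasted Lpin1-/- liver, and 2046 of 2382 rose on refeeding in Lpin1-/- liver. Of 11 NRF2 targets tested besides Nqo1, 3 (27.3%) were lower in fasted Lpin1-/- than in fasted Lpin1+/+ liver, led by Gclc (-1.68 ± 0.30, adjusted p = 0.0033) and Osgin1 (-1.56 ± 0.45, adjusted p = 0.034). On refeeding in Lpin1-/- liver, 3 of the 11 rose, led by Txnrd1 (1.70 ± 0.33, adjusted p = 0.0059) and Gclm (0.99 ± 0.20, adjusted p = 0.0063). Gclc and Gclm encode the subunits of the enzyme that starts glutathione synthesis. In limma 0 of the 11 passed on refeeding in Lpin1+/+ liver and between genotypes in refed liver, with 1 and 2 at an unadjusted p under 0.05.

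Cyp1a2 is a gene of pericentral hepatocytes, the zone around the central vein. Of 11 pericentral markers, 4 were lower in fasted Lpin1-/- liver, led by Tbx3 (-1.66 ± 0.34, adjusted p = 0.0076) and Gulo (-1.10 ± 0.20, adjusted p = 0.0042), and Gulo was also lower in refed Lpin1-/- liver (-1.13 ± 0.20, adjusted p = 0.010). On refeeding in Lpin1-/- liver, 2 of the 11 rose, Tbx3 (1.77 ± 0.34, adjusted p = 0.0056) and Axin2 (0.95 ± 0.19, adjusted p = 0.0067). The sum of the pericentral list was 7622 to 9356 RPKM in fasted Lpin1+/+, 2477 to 6643 in fasted Lpin1-/-, 3218 to 8491 in refed Lpin1+/+, and 4702 to 5491 in refed Lpin1-/- liver. The 2477 was in fasted Lpin1-/- replicate 1, beside 3779 and 6643 in the others of its group. The 3218 was in refed Lpin1+/+ replicate 2, beside 5940 and 8491. Of 11 periportal markers, 4 were higher in refed Lpin1-/- liver, led by Ass1 (2.14 ± 0.34, adjusted p = 0.0063) and Arg1 (1.89 ± 0.29, adjusted p = 0.0055), and Sds was higher in fasted Lpin1-/- liver (2.51 ± 0.31, adjusted p = 0.00058) and fell on refeeding there (-1.09 ± 0.31, adjusted p = 0.028). The median log2 difference of the 11 was 0.75 between refed genotypes. It was -0.11 between fasted genotypes and 0.18 on refeeding in Lpin1-/- liver, so Sds went against its list in both. The part of these marker differences in the Cyp1a2 levels was not tested.

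Clock genes, which follow the time of day, also differed. Of 14, Per2 rose on refeeding in Lpin1+/+ liver (1.83 ± 0.28, adjusted p = 0.012), and 5 rose and 1 fell in Lpin1-/- liver, led by Hlf (1.77 ± 0.38, adjusted p = 0.0083) and Clock (1.70 ± 0.40, adjusted p = 0.013). Between genotypes, Per1 was higher (2.55 ± 0.66, adjusted p = 0.020) and Hlf lower (-1.24 ± 0.38, adjusted p = 0.041) in fasted Lpin1-/- liver. In refed Lpin1-/- liver 2 were higher and 3 lower, with Dbp at -2.96 ± 0.70 (adjusted p = 0.032) and Arntl, the paralog of Arnt, at 1.81 ± 0.47 (adjusted p = 0.044). Refed Cyp1a1 and clock gene levels were both sampled later in the day than fasted ones, and the part of the hour in the Cyp1a1 levels cannot be told apart from that of food.

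Of 9 hepatocyte markers tested, Cyp3a11 fell on refeeding in Lpin1+/+ liver (-1.34 ± 0.30, adjusted p = 0.049) and Fabp1 was lower in refed Lpin1-/- liver (-3.04 ± 0.62, adjusted p = 0.016). The median log2 difference of the 9 was -0.36 in the first comparison. Between refed genotypes it was 0.44, so Fabp1 went against its list there. Of 9 Kupffer cell markers, Clec4f fell on refeeding in Lpin1-/- liver (-1.28 ± 0.34, adjusted p = 0.024), and the sum of this list was 362 to 992 RPKM in fasted Lpin1-/- liver against 190 to 385 in fasted Lpin1+/+, 105 to 904 in refed Lpin1+/+, and 115 to 268 in refed Lpin1-/- liver. In that refeeding comparison 6 of the 9 were at an unadjusted p under 0.05, and the median log2 difference of the list was -1.65. The Kupffer sum of 992 was in fasted Lpin1-/- replicate 1, beside 501 and 362 in the others of its group. The 904 was in refed Lpin1+/+ replicate 2, beside 174 and 105. Of 7 endothelial markers, Lyve1 was higher in fasted Lpin1-/- liver (1.77 ± 0.46, adjusted p = 0.021). In limma 0 of 8 stellate cell, 5 cholangiocyte, and 5 lymphocyte markers passed in any comparison, with at most 4, 2, and 1 of them at an unadjusted p under 0.05 in a comparison. The stellate sum was 222 to 321 RPKM in fasted Lpin1-/- and 76.2 to 179 in fasted Lpin1+/+ liver. The part of these cell type markers in the members' levels was not tested.

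The genes most like each member, by Pearson correlation of log2(RPKM + 1) over the 12 libraries, are given as a description. For Cyp1a1 they included Rcan1 (r = 0.97) and Rpp38 (0.94), and Rcan1, the calcineurin regulator, had group means of 5.40 and 5.18 RPKM in fasted and 29.7 and 19.5 RPKM in refed Lpin1+/+ and Lpin1-/- liver. For Tiparp they were Tmem252 (0.98), Ppp1r15a (0.96), and Blm (0.96). Ppp1r15a, which encodes the stress-induced phosphatase subunit GADD34, was at 14.5 RPKM in the mean of fasted Lpin1-/- liver and at 4.53 to 7.45 in the other group means. For Ahr they were Flii (0.96), 1110037F02Rik (0.95), and Cyfip1 (0.95). For Cyp1a2 they were Ces3a (0.86), Lipc (0.83), and Alas2 (0.81), and for Nqo1 Zfp456 (0.88), Gnpda2 (0.87), and Ctbs (0.86). These points share their libraries, and no member was among the genes most like another.

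Exon inclusion, which had no part in the choice of the members, was read from the deposited counts of reads that include or skip an exon. A log2 ratio of length-scaled inclusion to skipping counts was fitted with limma between genotypes in each fed state, for events with at least 10 counts in each of 6 libraries. The tables of genotype differences held 24 events of the members in fasted liver (16 of Cyp1a2, 4 of Tiparp, 2 of Ahr, and 2 of Nqo1) and 19 in refed liver (17 of Cyp1a2, 1 of Ahr, and 1 of Nqo1), and none of Cyp1a1 or Ahrr. Many Cyp1a2 events are variants of the same exon and share reads. Of the events tested, 1 of 20 passed in fasted liver and 1 of 17 in refed liver, beside 11.3% and 0.97% of all events. The rarer form summed to at most 41 counts over the 6 fasted libraries and at most 59 over the 6 refed libraries.

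The refed event that passed is a 68-base stretch of Cyp1a2 (chr9:57678047-57678114), between annotated exons, that is no exon of the gene in GENCODE M21. In refed Lpin1+/+ liver it had 11, 16, and 30 inclusion counts beside 2028, 4556, and 8458 skipping counts, and in refed Lpin1-/- liver 0, 0, and 0 beside 3264, 2329, and 2973 (limma adjusted p over all refed events = 0.026). It was thus seen in all 3 Lpin1+/+ livers and in none of the 3 Lpin1-/- livers. Pooled, these are 57 inclusion counts per 15042 skipping counts in refed Lpin1+/+ liver, or 3.79 per 1000, against 0 per 8566 in refed Lpin1-/- liver. The 0 allows up to 0.350 per 1000 (3 counts over the group), and 3.79 is 10.8 times this limit. That ratio takes the 57 counts as exact and leaves out the spread between livers, so it is not a lower bound. In fasted liver the counts were 2, 4, and 5 in Lpin1+/+ beside 4566 to 5034 skipping counts and 5, 1, and 0 in Lpin1-/- beside 3673 to 5382, and the genotypes did not pass (log2 ratio -1.16 ± 0.98, adjusted p = 0.48). The refed call was lost in each of the 6 fits with 1 library left out.

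**Figure D4:**
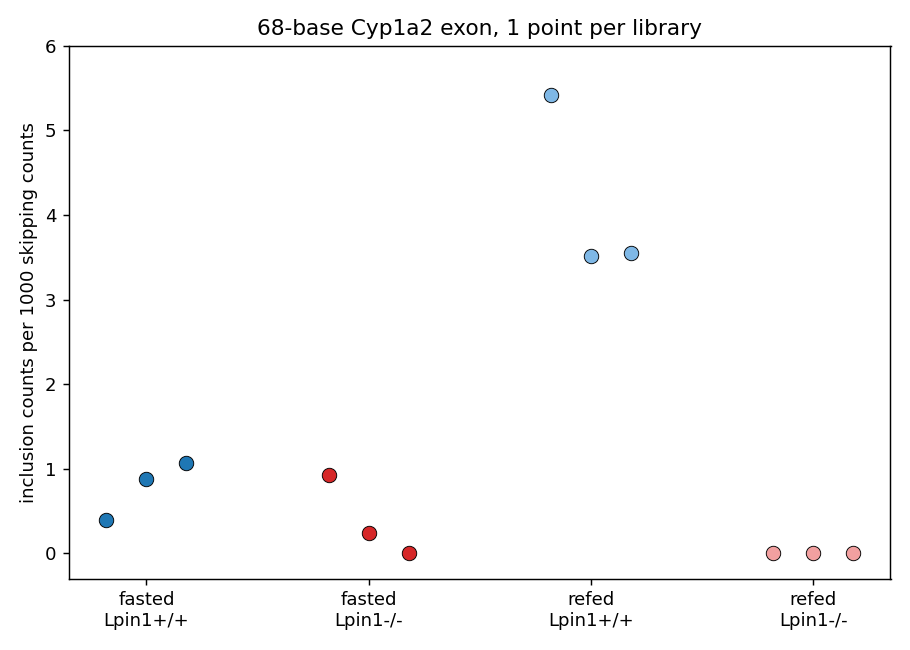
Inclusion counts of the 68-base Cyp1a2 stretch per 1000 skipping counts, 1 point per library, in the 4 groups. Refed Lpin1+/+ livers lie at 3.51 to 5.42, and refed Lpin1-/- livers at 0.

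The fasted event that passed is exon 4 of Ahr transcript Ahr-202 (chr12:35512859-35512948, 90 bases, coding). It had 182, 48, and 63 inclusion counts in Lpin1+/+ and 16, 12, and 59 in Lpin1-/- liver, with skipping counts of 0, 0, and 0 and of 0, 0, and 2 (log2 ratio -2.61 ± 0.74, adjusted p = 0.040). With hardly any skipping counts, this ratio follows the amount of Ahr RNA. The call was absent in each of the 6 fits with 1 library left out. A minimum of 20 or 50 counts removes this event before the test, since fasted Lpin1-/- libraries had 16 and 12 counts. Those settings therefore cannot show whether the call holds. In refed liver the Ahr exon with a tested event, exon 3 (chr12:35515021-35515124), had 90, 104, and 99 inclusion counts against 118, 66, and 65, with 0 to 3 skipping counts (adjusted p = 0.42).

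Of the other members, the Cyp1a2 event with the most counts of its rarer form was exon 5 (chr9:57679847-57679970), skipped by 1, 9, and 11 counts in fasted Lpin1+/+ and 8, 7, and 5 in fasted Lpin1-/- liver, beside 3486 to 5011 inclusion counts (adjusted p = 0.75). In refed liver it was skipped by 3, 14, and 28 and by 7, 0, and 7 counts, beside 2159 to 7783 (adjusted p = 0.59). Tiparp exon 2 (chr3:65531224-65532184) was skipped by 0, 0, and 0 counts in fasted Lpin1+/+ and 0, 4, and 5 in fasted Lpin1-/- liver, beside 126 to 255 and 889 to 3911 inclusion counts (adjusted p = 0.57). A further Tiparp stretch of 113 bases that is no annotated exon (chr3:65545677-65545789) had too few counts for the test. It had 0, 0, and 0 inclusion counts beside 25, 13, and 8 skipping counts in fasted Lpin1+/+ and 5, 7, and 11 beside 45, 66, and 281 in fasted Lpin1-/- liver. For Nqo1, a 77-base stretch outside the annotated exons (chr8:107389683-107389759) had 0 to 2 inclusion counts in fasted liver (adjusted p = 0.54), and exon 4 (chr8:107392122-107392235) had 0 or 1 skipping count in refed liver (adjusted p = 0.86).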

How the data were processed

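RNA-Seq of 12 mouse livers was used, 3 per group by the labels; nothing else ties the replicate numbers to litters or batches. The submitters' processing notes name HISAT2 2.0.5, HTSeq 0.6.0, and DESeq2 1.20.0 on GRCm38. Libraries were stranded (about 150 M reads each per the labels), and the authors deposited RPKM for 22456 genes. For splicing, the authors deposited inclusion and skipping counts per library from rMATS with the lengths of both forms. Columns of the authors' own fold changes, p-values, and FDR, and 3 tables of selected events or enriched terms, were not used. In the event tables the libraries of a group are listed without replicate numbers.

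Log2(RPKM + 1) was fitted in limma 3.58.1 (R 4.3.3) with a mean for each of the 4 groups, a variance trend, and a minimum mean of 0.5 RPKM. The Benjamini-Hochberg method was used to adjust p-values, with a threshold of 0.05. The study's own test needs counts, so it was replaced. Event ratios had 0.5 added to each count. The members, lists, and rules were chosen with earlier results of these data known. Genes named are all members, Lpin1, the called genes of the 3 AHR lists (up to 3 per direction and comparison) and those over a mean of 100 RPKM, up to 2 called genes per comparison of the other lists (largest change first), and the 3 genes most like each member; 2 genes that these rules name are not reported here. Events named are those called, and per member that with the most counts of its rarer form; the 113-base Tiparp stretch was added after its values were seen. The other lists were NRF2 targets, pericentral and periportal hepatocyte, core clock, hepatocyte, Kupffer cell, endothelium, stellate cell, cholangiocyte, and lymphocyte genes. Scripts were tested on simulated data. The results were recomputed with 0.1 added to RPKM, without the filter, with a minimum mean of 5 RPKM, with rescaling by median ratio, with the replicate number as a block, from the 6 libraries compared alone, and without each library in turn, and for events with at least 20 or 50 counts or 1 added to each count. Python 3.11.15, numpy, pandas, and scipy read the files; gene positions are from GENCODE M21.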

Additional observations from a re-analysis of the deposited data

How the results depend on the processing

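The log2 differences of the 5 members kept their size within the replicate spread (1 SD) in 422 of 430 refits. In the other 8, a pseudocount of 0.1 made the differences of Cyp1a1 and Tiparp larger (3.29 for Cyp1a1 on refeeding in Lpin1+/+ liver and 3.04 for Tiparp between fasted genotypes), and leaving out fasted Lpin1-/- replicate 3 made those of Tiparp smaller. The sign of the Nqo1 difference between refed genotypes changed in 4 refits (range -0.56 to 0.58). On refeeding in Lpin1+/+ liver, the sign changed in 4 refits for Tiparp (-0.13 to 0.10) and in 1 each for Ahr, Cyp1a2, and Nqo1. The 1 AHR pathway gene called on refeeding in Lpin1+/+ liver (Slc46a3) became 0 with a pseudocount of 0.1, no filter, rescaling by median ratio, or only the 6 libraries compared, and 2 with a mean of at least 5 RPKM. The 4 called in Lpin1-/- liver became 2 with no filter or with rescaling. With the replicate block these counts were 0 and 2, and the block moved no other count of the pathway genes by over 1.5 times. By the labels, libraries with the same replicate number share only that number. Of 18 same-numbered pairs, 8 had a correlation of deviations over 0.1 (range -0.47 to 0.74). Of 12 libraries, 6 correlated best with their own number. These values cannot show whether some same-numbered libraries shared a batch.

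With 1 library left out, the pathway genes called ranged from 0 to 1 on refeeding in Lpin1+/+ liver, 2 to 6 in Lpin1-/- liver, 4 to 7 between fasted genotypes, and 2 to 6 between refed genotypes. The members past the threshold ranged from 1 to 3 on refeeding in Lpin1-/- liver and from 1 to 2 between fasted genotypes, 2 being the count without fasted Lpin1+/+ replicate 2. With a mean of at least 5 RPKM, which removes Cyp1a1 and Tiparp, 0 members were past it in the 3 comparisons that had any, and with only the 6 libraries compared 0 were past it on refeeding in Lpin1+/+ liver. The 1 member exon event called in fasted liver became 0 with at least 20 or 50 counts, minimums that remove this Ahr event before the test. With 1 added to each count, the number called in fasted liver was 2. With 1 library left out, the events called ranged from 0 to 0 in fasted liver and from 0 to 0 in refed liver. The fits with 1 library left out have fewer samples.

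Rescaling moved the median of all genes on refeeding from 0.19 to 0.00 in Lpin1+/+ liver and from 0.25 to 0.06 in Lpin1-/- liver. The share of called genes that were higher went from 88.4% to 64.0% and from 85.9% to 68.8% there, and between genotypes from 29.9% to 41.0% in fasted and from 39.0% to 57.8% in refed liver. All genes called on refeeding in Lpin1+/+ liver were 198, but 50 with rescaling, 93 with the replicate block, and 0 with only the 6 libraries compared; for the difference in response they were 147, but 321 with rescaling, 83 with no filter, and 81 with the block. Between fasted genotypes 2168 became 1011 with only the 6 libraries compared. With 1 library left out, all genes called ranged from 23 (without fasted Lpin1+/+ replicate 2) to 229 on refeeding in Lpin1+/+ liver and from 1119 (without refed Lpin1-/- replicate 2) to 3105 in Lpin1-/- liver. Between genotypes they ranged from 1040 (without fasted Lpin1+/+ replicate 3) to 2316 in fasted and from 243 (without refed Lpin1-/- replicate 3) to 1048 in refed liver, and for the difference in response from 30 (without refed Lpin1-/- replicate 3) to 176. For Ahrr, depth is the limit, at as few as 1 to 12 reads a library.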
